A study of Homo sapiens with 9 samples.

Results

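VGF, the granins, the neuroendocrine prohormone convertases with their inhibitory partner proteins, and the transcription factor INSM1 make up a group of 10 genes out of 62700 in the count table. They were chosen by gene family, after 2 of them had been seen to respond: VGF because of its large induction by both fusions, and INSM1 because it fell. The levels and differences of VGF and INSM1 are therefore given as a description with no test. The other 8 (CHGA, CHGB, SCG2, SCG3, SCG5, PCSK1, PCSK2 and PCSK1N) were added by gene family, with earlier results of these data known. Of these, CHGA, CHGB, SCG2, SCG3 and PCSK1N had enough counts to be tested.

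The libraries were made from polyA-selected RNA of 293T cells, a transformed human embryonic kidney line, transfected transiently from plasmids and harvested about 48 hours later. The 3 groups of 3 libraries received a plasmid without insert (empty vector), a plasmid for the fusion HA-CIC(ex20)::NUTM1(ex6), or a plasmid for the fusion HA-CIC::DUX4, and differed in nothing else that the labels give. Per the labels, different replicates were transfected on different days, and p-values measure the spread between these libraries of 1 cell line. In a pool of transfected cells, more cells with a transcript and more transcript per cell cannot be told apart. Library totals ran from 16970771 to 33655445 counts, and 17576 genes were tested. CIC, NUTM1 and DUX4 themselves were not analysed here, and no check of the labels against plasmid transcripts is given. Of 7 embryonic kidney markers, PAX8 was at 0 counts in all empty vector libraries and the other 6 were detected. The summed level was 163 to 171 CPM (a unit in which every library is brought to the same total) in empty vector. It was 209 to 215 in the CIC::NUTM1 libraries and 169.6 to 173 in the CIC::DUX4 libraries. The sum does not show the changes of its members. PAX8 held 45, 22 and 13 counts with CIC::DUX4, and 5, 1 and 2 with CIC::NUTM1. PAX8 and EYA1 were higher with CIC::DUX4 than with empty vector (edgeR adjusted p under 0.05). EYA1, SALL1 and LHX1 were higher with CIC::NUTM1 by the same rule, and 0 were lower with either fusion. Of all tested genes, 6.96% were called higher and 1.27% lower with CIC::DUX4, and 11.5% and 3.83% with CIC::NUTM1. A count of 0 lower among 7 genes is therefore no result about these markers. With 0 control counts, PAX8 was tested only because of the fusion libraries.

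Neuroendocrine cells store peptide hormones in dense-core granules. Granins, the family that includes VGF, CHGA, CHGB, SCG2 and SCG3, are acidic proteins that aggregate in the trans-Golgi and help to form these granules, and several of them, VGF among them, are also cut into bioactive peptides. The cutting is done by the convertases PC1/3 (PCSK1) and PC2 (PCSK2), which the small proteins proSAAS (PCSK1N) and 7B2 (SCG5) bind and regulate. INSM1 is a zinc-finger factor of neuroendocrine differentiation. CIC is a repressor that binds TGAATGAA and close variants in DNA, and the fusions keep its DNA-binding part while DUX4 or NUTM1 adds a region that recruits activators. The VGF promoter is also known for a cAMP response element (CRE), the palindrome bound by CREB-family factors.

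The promoter sequence of VGF is shown because it carries both of these motifs, and those of CHGA and PCSK1 because they hold the CRE alone. VGF lies on the minus strand at chr7:101162509-101165593 (GRCh38, GENCODE 29). The first sequence covers chr7:101165594-101165819, minus strand, up to the base before the GENCODE gene. The CHGA stretch is chr14:92923085-92923114 on the plus strand and the PCSK1 stretch is chr5:96433307-96433336 on the minus strand. Sequences are from RefSeq (GRCh38), 5′ to 3′ in the direction of transcription, with CIC octamers and CRE palindromes in capitals.
VGF: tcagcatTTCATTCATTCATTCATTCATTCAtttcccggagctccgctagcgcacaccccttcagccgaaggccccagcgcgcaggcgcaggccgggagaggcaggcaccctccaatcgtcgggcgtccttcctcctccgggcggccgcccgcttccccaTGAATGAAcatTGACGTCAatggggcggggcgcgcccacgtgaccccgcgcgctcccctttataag
CHGA: ggcggcaccgcTGACGTCAtttccggggtc
PCSK1: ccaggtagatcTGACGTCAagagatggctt

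The letters searched were the octamers TGAATGAA, TGAATGGA, TCAATGAA and TCAATGGA on both strands, and the CRE palindrome TGACGTCA, in RefSeq windows of 300 bases, 250 before each gene's start and 50 from it on. The VGF window held 6 octamer matches. Of these, 5 overlapped one another on the reverse strand at steps of 4 bases, from -243 to -220 relative to the RefSeq start, as a run of the unit TTCA. The last 1 lay on the forward strand at -90 to -83, and the CRE at -79 to -72 followed it after 3 bases. That compound stretch reads TGAATGAAcatTGACGTCA, at chr7:101165641-101165659.

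Matches of this density were uncommon among promoters. At least 1 octamer stood in 3.77% of 35116 windows (1323 windows), the octamer TGAATGAA itself in 1.65%, and the CRE palindrome in 1.85%. Both motifs stood together in 16 windows (0.0456%), and 6 or more octamer matches in 4 (0.0114%). Of those 4 windows, VGF and LOC124901144 held 6 matches, OR13C5 held 7 and ANKRD24 held 8. RefSeq windows were given for 7 of the 10 genes (9 windows, 2 each for PCSK1 and PCSK2), and CHGB, SCG2 and INSM1 had none. The CRE lay at -54 to -47 in CHGA and at -77 to -70 in 1 window of PCSK1. SCG3, SCG5, PCSK2 and PCSK1N held neither set of letters in their windows. A match describes letters in a window and is no measurement of binding.

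**Figure D1:**
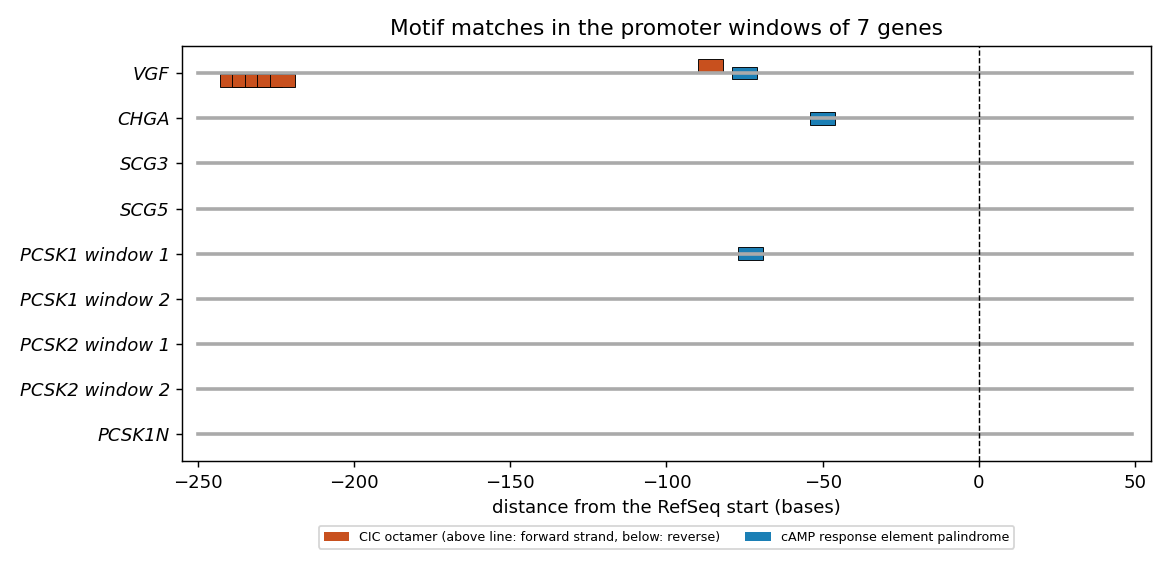
Motif matches in the 9 promoter windows of 7 genes, by distance in bases from the RefSeq start (dashed line). Orange boxes are CIC octamers (above the line forward strand, below it reverse strand) and blue boxes are CRE palindromes; VGF has 5 overlapping octamers upstream and 1 beside its CRE, while CHGA and PCSK1 have the CRE alone.

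VGF (ENSG00000128564) encodes a granin-family precursor whose peptides act in energy balance and neuronal signalling. The 3 empty vector libraries held 26, 52 and 16 VGF counts, or 1.49, 1.52 and 0.641 CPM. With CIC::NUTM1 they held 15018, 12152 and 11253 counts (901, 465 and 583 CPM), and with CIC::DUX4 42751, 25279 and 24632 counts (1631, 1211 and 1449 CPM). The 3 groups did not overlap: every CIC::DUX4 library lay above every CIC::NUTM1 library, and every fusion library lay far above the controls. The gap between the fusions was smaller than the step from control, since the lowest CIC::DUX4 library (1211 CPM) was not far above the highest CIC::NUTM1 library (901 CPM).

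The mean VGF level in CPM was 1.22 ± 0.499 in empty vector, 649.7 ± 226 in CIC::NUTM1 and 1430.2 ± 210.4 in CIC::DUX4 (SD, n = 3 each). These are 534-fold and 1175-fold differences from control (fitted log2 differences 9.04 and 10.18), and the mean with CIC::DUX4 was 2.20-fold that with CIC::NUTM1 (fitted log2 difference of CIC::NUTM1 against CIC::DUX4, -1.14). No test is given, because these contrasts chose the gene. Within CIC::NUTM1 replicate 1 was the highest of the group.

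VGF moved from an inconspicuous transcript to one of the most abundant. By mean CPM it stood in place 14024 of 34765 detected genes in empty vector, in place 158 with CIC::NUTM1 and in place 43 with CIC::DUX4. It took 0.0459 to 0.0877% of all counts in the CIC::NUTM1 libraries and 0.123 to 0.165% in the CIC::DUX4 libraries. Among the genes called higher with CIC::DUX4 it had the largest gain in mean level, 1429 CPM, and the next largest was 411.7 CPM for the mitochondrial gene MT-ND2. With CIC::NUTM1 the gain was 648 CPM and the next was 562 CPM for ACTB, cytoplasmic actin. By fitted log2 fold change it was exceeded by 7 called genes (CIC::DUX4) and 19 (CIC::NUTM1), and by 1 and 23 in mean level, so that its first place was one of absolute gain.

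**Figure D2:**
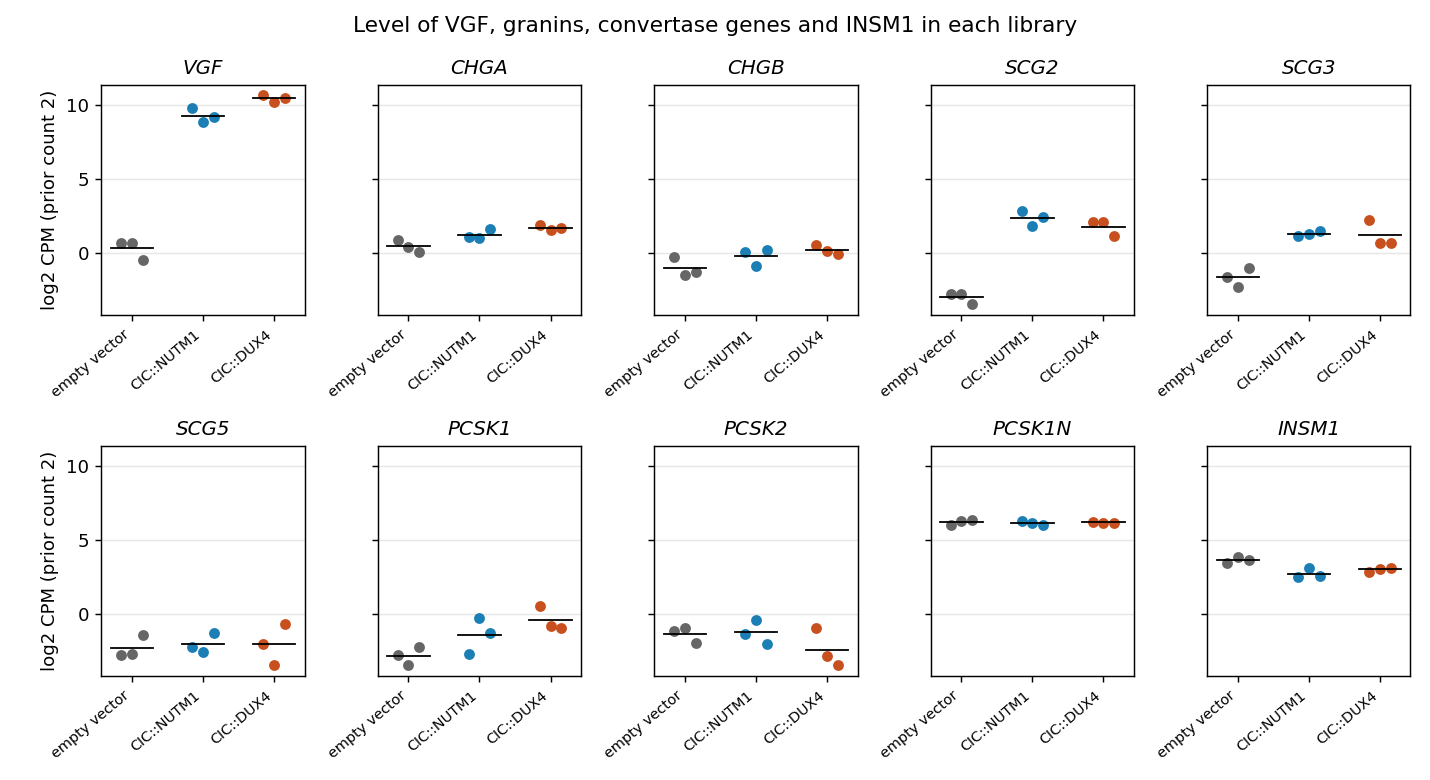
Level of each of the 10 genes in each library, as log2 CPM with a prior count of 2; points are libraries of the 3 groups (n = 3 each) and bars are group means. VGF lies near 0 in the controls and at about 9 and 10 with the fusions, SCG2 and SCG3 lie below 0 in the controls and above 0 with the fusions, PCSK1N overlaps in all groups and INSM1 lies lower with both fusions.

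Compared per kilobase of exon, the granins other than VGF remained minor transcripts. VGF made up 32.1 to 52.9% of the summed CPM per kilobase of VGF, CHGA, CHGB, SCG2 and SCG3 in the empty vector libraries, 98.2 to 98.8% with CIC::NUTM1 and 99.3 to 99.6% with CIC::DUX4. The other 4 granins summed to 0.502 to 0.826 CPM per kilobase in empty vector, 2.68 to 4.11 with CIC::NUTM1 and 2.42 to 4.39 with CIC::DUX4. The 4 together were thus higher in every fusion library than in every control library, but at levels far below VGF.

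Among the tested genes of the group, CHGA, SCG2 and SCG3 (3 of 5) were called higher with CIC::DUX4 against empty vector, where 8.24% of all tested genes were called and 6.96% were called higher (edgeR quasi-likelihood test, Benjamini-Hochberg adjusted p under 0.05). With CIC::NUTM1, SCG2 and SCG3 (2 of 5) were called higher, where 15.3% of all tested genes were called and 11.5% were called higher. None was called lower (1.27% and 3.83% of all tested genes). SCG2, SCG3 and CHGB passed the abundance filter only with the fusion libraries, in which their means were higher. These counts over the tested genes therefore do not support a statement about the group. The adjusted p values given below for SCG2, SCG3 and CHGB carry the same limit. Between the fusions 0 of the 5 were called by edgeR (6.61% of all tested genes were, 4.97% higher and 1.64% lower with CIC::NUTM1), 0 had an unadjusted p under 0.05, and DESeq2 and limma-trend called 0.

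SCG2 (secretogranin II, ENSG00000171951, chr2:223596940-223602503, minus strand), the precursor of secretoneurin, showed the largest fitted rise of the tested members. Empty vector libraries held 1, 2 and 0 counts, CIC::NUTM1 libraries 118, 90 and 104 counts (7.08, 3.44 and 5.39 CPM), and CIC::DUX4 libraries 112, 87 and 36 counts (4.27, 4.17 and 2.12 CPM). All fusion libraries lay above all controls, and the fusions overlapped each other. With only 3 control counts in all, the ratio is best given from pooled counts: 128 for CIC::NUTM1 (95% counting interval 43.5 to 625) and 93.6 for CIC::DUX4 (31.6 to 457), which cover counting error only. In the fit the log2 fold change was 6.88 ± 0.55 (SE) for CIC::NUTM1 and 6.32 ± 0.57 for CIC::DUX4, with edgeR adjusted p of 1.10e-09 and 1.35e-08. The direct difference of CIC::NUTM1 against CIC::DUX4 was 0.57 on the log2 scale (95% interval -0.08 to 1.21, edgeR adjusted p 0.36), which leaves room for up to a 2.32-fold difference.

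SCG3 (secretogranin III, ENSG00000104112, chr15:51681353-51721031, plus strand) links other granins to the granule membrane. Its CPM was 0.229, 0.117 and 0.401 in empty vector, 2.16, 2.30 and 2.75 with CIC::NUTM1, and 4.58, 1.49 and 1.53 with CIC::DUX4. Control and fusion libraries did not overlap, while CIC::DUX4 replicate 1 (120 counts) stood well above the other 2 CIC::DUX4 libraries (31 and 26 counts). The log2 fold change was 3.29 ± 0.52 (SE) with CIC::NUTM1 and 3.39 ± 0.51 with CIC::DUX4 (edgeR adjusted p 3.87e-05 and 4.15e-05). Against each other the fusions gave -0.10 (95% interval -0.94 to 0.74), and this turned to 0.67 without CIC::DUX4 replicate 1. A lincRNA and an antisense gene overlap SCG3 on the opposite strand without sharing an exon. The use of strand in counting is not given in the sources used here, so reads of such pairs cannot be told apart.

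CHGA (chromogranin A, ENSG00000100604, chr14:92923080-92935293, plus strand), the classical neuroendocrine tumour marker, started from a level per kilobase near that of VGF and rose far less. It held 1.77, 1.20 and 0.962 CPM in empty vector, 1.98, 1.91 and 2.95 in CIC::NUTM1, and 3.55, 2.78 and 3.06 with CIC::DUX4. The fusion libraries lay above the controls, narrowly so for CIC::NUTM1. The log2 fold change with CIC::DUX4 was 1.28 ± 0.32 (SE; edgeR adjusted p 0.0107). That call was lost without empty vector replicate 2, without empty vector replicate 3 and without CIC::DUX4 replicate 1 (adjusted p up to 0.0747 in edgeR). With CIC::NUTM1 the change was 0.82 ± 0.33 and did not pass (edgeR adjusted p 0.101), and the fusions differed by -0.46 (95% interval -1.10 to 0.18).

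CHGB (chromogranin B, ENSG00000089199, chr20:5911430-5925361, plus strand), a related granule core protein, held 0.744, 0.264 and 0.321 CPM in empty vector, 0.96, 0.459 and 1.04 in CIC::NUTM1 and 1.34, 1.01 and 0.882 with CIC::DUX4. CIC::DUX4 libraries lay above the controls and CIC::NUTM1 libraries overlapped them. None of the differences passed (edgeR adjusted p 0.166 and 0.314 for CIC::DUX4 and CIC::NUTM1 against control, and 0.754 in the direct comparison). At this depth the intervals were wide, 1.15- to 5.68-fold for CIC::DUX4 against control.

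**Figure D3:**
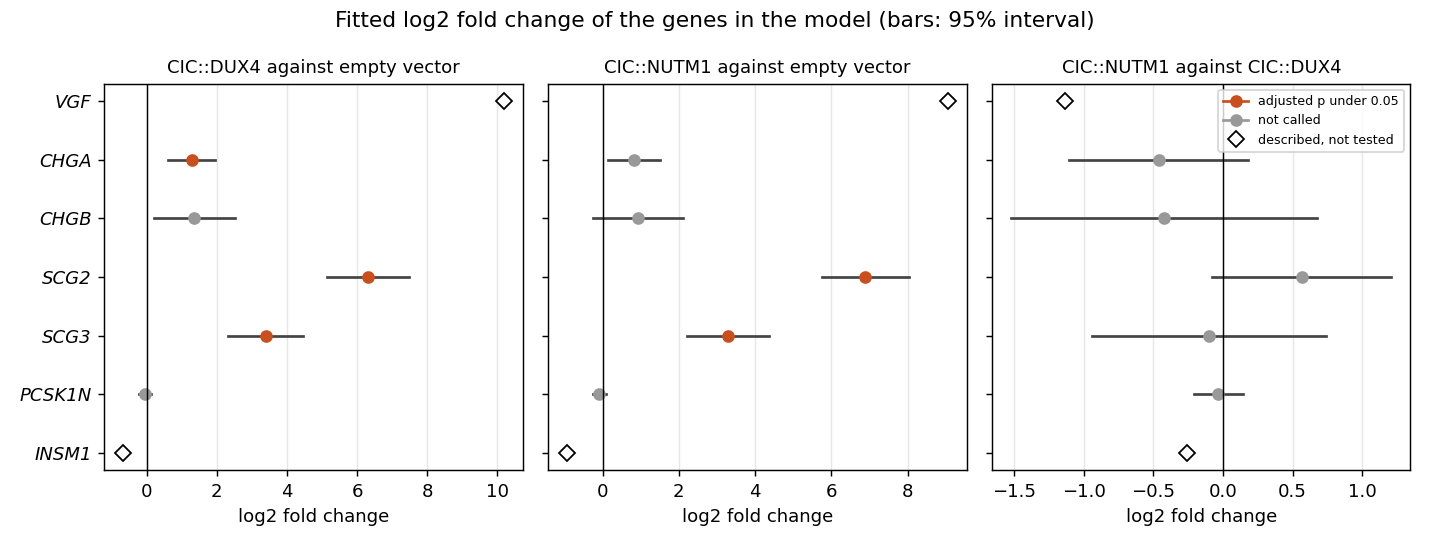
Fitted log2 fold change of the 7 genes in the model for each comparison; filled points have a 95% interval and are orange where the adjusted p is under 0.05, and open diamonds (VGF, INSM1) are descriptions without a test. The horizontal scale differs between panels: SCG2 and SCG3 lie well right of 0 for both fusions, and every interval in the direct comparison spans 0.

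The convertases themselves were scarce in all libraries and were below the filter. PCSK1 (ENSG00000175426, chr5:96390415-96434143, minus strand) held 1, 0 and 3 counts in empty vector, 1, 19 and 6 with CIC::NUTM1, and 35, 10 and 7 with CIC::DUX4. The CIC::DUX4 libraries lay above the controls, led by replicate 1, and the CIC::NUTM1 libraries overlapped both other groups. The pooled ratio to control was 15.5 for CIC::DUX4 (95% counting interval 5.72 to 59.1) and 8.02 for CIC::NUTM1 (2.78 to 31.6). The exact two-sided permutation test over libraries gave p = 0.1 for CIC::DUX4, the smallest that 3 against 3 can give, 0.2 for CIC::NUTM1 and 0.4 between the fusions. When all genes with counts were fitted without the filter, PCSK1 was called with CIC::DUX4 (log2 fold change 3.63 ± 0.95 SE, edgeR adjusted p 0.00394) and not with CIC::NUTM1 (adjusted p 0.0643).

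PCSK2 (ENSG00000125851, chr20:17226107-17484578, plus strand) held 6, 14 and 4 counts in empty vector, 5, 17 and 3 with CIC::NUTM1, and 11, 1 and 0 with CIC::DUX4. SCG5 (ENSG00000166922, chr15:32641676-32697098, plus strand), which encodes the PC2 chaperone 7B2, held 1, 2 and 7 counts, then 2, 2 and 6, then 4, 0 and 9 in the same order of groups. All 3 groups overlapped for both genes, and no difference was detectable at this depth (exact permutation p of 0.4 to 0.9 for PCSK2 and 0.5 to 0.8 for SCG5, two-sided). An antisense gene shares exon sequence with SCG5 on the opposite strand, and PCSK1 and PCSK2 each overlap 1 opposite-strand gene outside their exons.

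PCSK1N (ENSG00000102109, chrX:48831094-48835633, minus strand), the gene of the PC1/3 inhibitor proSAAS, was by contrast well expressed in 293T cells and overlapping in all groups. It held 64.7, 77.0 and 82.4 CPM in empty vector, 76.0, 71.7 and 64.3 in CIC::NUTM1, and 73.2, 72.2 and 71.5 with CIC::DUX4. The intervals of the fold change were narrow, 0.854 to 1.09 for CIC::DUX4 and 0.835 to 1.07 for CIC::NUTM1 against control, and 0.863 to 1.11 between the fusions (edgeR adjusted p 0.822, 0.595 and 0.894).

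INSM1 (ENSG00000173404, chr20:20368121-20370949, plus strand) went the other way from VGF. It held 10.7, 14.3 and 12.3 CPM in empty vector, 5.58, 8.26 and 5.75 in CIC::NUTM1, and 6.98, 8.19 and 8.53 with CIC::DUX4. Both fusion groups lay below the controls without overlap and overlapped each other. The means were 12.4 ± 1.83, 6.53 ± 1.503 and 7.90 ± 0.814 CPM (SD, n = 3 each). The fitted log2 difference from control was -0.92 with CIC::NUTM1 and -0.67 with CIC::DUX4, and -0.26 for CIC::NUTM1 against CIC::DUX4, with no test since INSM1 was chosen for its fall. Its sign was the same under every scaling tried.

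In the order of the 10 genes by level per kilobase of exon, VGF went from place 3 in empty vector to place 1 with both fusions, and SCG2 from place 9 to place 4. In empty vector PCSK1N led (54.8 ± 6.64 CPM per kilobase, SD, n = 3), followed by INSM1 (4.396 ± 0.647), VGF (0.450 ± 0.185) and CHGA (0.423 ± 0.135), and the last 2 did not differ beyond their spread. CHGB, SCG3, SCG5, PCSK2, SCG2 and PCSK1 followed below 0.1 CPM per kilobase, with neighbours overlapping except PCSK2 and SCG2. With CIC::NUTM1 VGF led (240.3 ± 83.4), ahead of PCSK1N (51.8 ± 4.33), INSM1 (2.31 ± 0.531) and SCG2 (1.95 ± 0.669), of which INSM1 and SCG2 overlapped. CHGA and SCG3 followed, overlapping at 0.736 ± 0.188 and 0.724 ± 0.0925, and then CHGB, SCG5, PCSK1 and PCSK2. With CIC::DUX4 the order was VGF (529 ± 77.8), PCSK1N (53.0 ± 0.61), INSM1 (2.79 ± 0.288), SCG2 (1.29 ± 0.447), CHGA (1.01 ± 0.125) and SCG3 (0.763 ± 0.535), and SCG2 overlapped CHGA, as CHGA did SCG3. The last places there were CHGB, PCSK1, SCG5 and PCSK2.

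The genes whose log2 CPM followed VGF most closely over the 9 libraries were PRAMEF20 (Pearson r 0.996), TGFB3 (0.994), DBH-AS1 (0.994), MYO18B (0.994) and ABCB11 (0.994). These values describe libraries that fall into separate groups and share them with VGF, and carry no p. PRAMEF20, of a family of near-identical copies whose reads counting may split, MYO18B and ABCB11 were at 0 counts in all empty vector libraries. TGFB3, a TGF-beta ligand, went from 4.32 ± 0.344 CPM in the controls to 13.7 ± 0.38 (CIC::NUTM1) and 15.8 ± 2.14 (CIC::DUX4). For INSM1 the closest were GLA (0.976), ARHGEF2 (0.973), RAB9A (0.972), VANGL2 (0.967) and PGAP4 (0.966). GLA, the lysosomal alpha-galactosidase, went from 277.5 ± 8.29 CPM in the controls to 219.98 ± 22.7 (CIC::NUTM1) and 236 ± 11.9 (CIC::DUX4).

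Of the protein-coding neighbours of VGF described here, AP1S1 alone was called in any comparison. AP1S1, 0.912 kb away, was at 66.3 ± 2.02 CPM in the controls, 89.1 ± 7.77 CPM for CIC::NUTM1 and 76.5 ± 6.57 CPM for CIC::DUX4 (SD, n = 3 each). AP1S1, a subunit of the AP-1 clathrin adaptor, was called higher with CIC::NUTM1 (log2 fold change 0.42 ± 0.08 SE, edgeR adjusted p 0.000387) and not with CIC::DUX4 (0.143). TRIM56 and PLOD3 were tested and not called in any comparison. NAT16 and MOGAT3 were below the filter, MOGAT3 at 0 counts. Around INSM1, none of CRNKL1, NAA20, RALGAPA2, KIZ and XRN2 was called, and CFAP61 was below the filter.

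ANKRD24, named here after its 8 promoter octamers were seen, was at 1.93 ± 0.312 CPM in the controls, 18.6 ± 6.84 (CIC::NUTM1) and 28.3 ± 4.79 CPM (CIC::DUX4), and was called higher with both (edgeR adjusted p 2.19e-07 and 4.79e-08). Between the fusions ANKRD24 was not called (0.0971), but the difference passed with no filter on low counts, with the replicate block and without CIC::NUTM1 replicate 1 (adjusted p down to 0.000231 in edgeR). OR13C5, an olfactory receptor with 7, was at 0 counts in all libraries. No value was matched to LOC124901144.

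Other genes of the secretory granule pathway were taken from 5 lists. The median log2 fold change of all tested genes was within 0.01 of 0 in every comparison. Of 46 peptide and granule cargo genes, 14 were tested, and with CIC::DUX4 3 were called higher and 0 lower (median -0.05), and with CIC::NUTM1 4 were higher and 0 lower (median 0.63). Of all tested genes, 6.96% were called higher and 1.27% lower with CIC::DUX4, and 11.5% and 3.83% with CIC::NUTM1. The controls alone would not have carried 7 of the 14 past the abundance filter, among them every called one (TAC1, PDYN, NTS, BDNF and GNRH1), so the cargo counts and medians do not support a statement about the list. In 1 of the tested genes, PDYN, the controls were all at 0, and with PDYN set to its bound both medians were the same. The count of 3 with CIC::DUX4 became 1 when CIC::DUX4 replicate 1 or empty vector replicate 2 was left out, in limma-trend, with only the 2 groups compared and with at least 10 counts in every library. The count of 4 with CIC::NUTM1 became 1 with that minimum and 7 with no filter.

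The cargo genes called higher are described singly. All of them passed the abundance filter only with the fusion libraries, and their adjusted p values carry that limit. NTS, the neurotensin precursor, rose with both fusions, from 0.552 ± 0.0991 CPM to 4.23 ± 1.11 (CIC::NUTM1) and 3.75 ± 0.929 CPM (CIC::DUX4; edgeR adjusted p 3.97e-07 and 1.66e-06). TAC1, the substance P precursor, rose with CIC::NUTM1 from 0.698 ± 0.21 to 5.31 ± 1.15 CPM (edgeR adjusted p 7.94e-07) and was at 0.516 ± 0.169 CPM with CIC::DUX4. The direct difference for TAC1 was 3.37 ± 0.37 on the log2 scale (edgeR adjusted p 8.66e-07), the 1 cargo gene called between the fusions. Over all tested genes, 4.97% were called higher and 1.64% lower in that comparison. BDNF, a neurotrophin, rose with CIC::NUTM1 from 0.319 ± 0.0326 to 2.52 ± 0.533 CPM (edgeR adjusted p 5.35e-05). Its call with CIC::DUX4 (0.992 ± 0.488 CPM, adjusted p 0.0395) was lost in 8 alternatives: limma-trend, only the 2 groups compared, the replicate block, and 5 that left out 1 library (each empty vector library in turn, and CIC::DUX4 replicates 1 and 2). GNRH1, the gonadotropin-releasing hormone gene, was called with CIC::NUTM1 at 1.06 ± 0.0651 CPM (control 0.221 ± 0.17, edgeR adjusted p 0.0181), a call that needed replicates 1 and 3 of both groups, since it was lost without any of those 4.

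PDYN and GAL fell outside the rule for naming genes and were picked after their values were seen. PDYN, prodynorphin, at 0 counts in all controls, held 23, 13 and 2 counts with CIC::DUX4, and its mean level there was at least 4.26-fold higher (floor of 3 counts per library). PDYN was called with CIC::DUX4, and this call was lost in limma-trend and when CIC::DUX4 replicate 1 or empty vector replicate 2 was left out. GAL, the galanin precursor, was the most abundant cargo gene in control cells at 162 ± 15.6 CPM, against 167 ± 13.0 (CIC::NUTM1) and 164 ± 20.0 CPM (CIC::DUX4), with edgeR adjusted p of 0.803 and 0.953.

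Of 16 processing enzymes, 14 were tested, with 2 higher and 0 lower in CIC::DUX4 and 4 higher and 0 lower in CIC::NUTM1 (medians -0.06 and 0.04), where 6.96% and 11.5% of all tested genes were called higher. Both sets held PCSK5, a convertase of the furin type, at 17.02 ± 0.958 CPM in the controls, 31.8 ± 1.03 (CIC::NUTM1) and 26.5 ± 5.76 CPM (CIC::DUX4; edgeR adjusted p 7.50e-06 and 0.000945). PCSK4, a convertase of germ cells, was at 4.99 ± 1.10, 7.66 ± 0.52 and 9.37 ± 1.17 CPM in that order (edgeR adjusted p 0.0225 and 0.00151), and its call with CIC::NUTM1 was lost when replicate 2 of either group, or empty vector replicate 3, was left out. The carboxypeptidases that trim the cut peptides were called higher with CIC::NUTM1 against control, CPD at 168 ± 15.1 against 131 ± 4.59 CPM and CPE at 130.5 ± 8.79 against 107 ± 11.4 CPM (edgeR adjusted p 0.00334 and 0.01). The call of CPE against control was lost without empty vector replicate 1 and without CIC::NUTM1 replicate 1. Between the fusions CPE was higher with CIC::NUTM1 (log2 0.45 ± 0.08, edgeR adjusted p 0.000363), and the glutaminyl cyclase gene QPCTL was lower (-0.39 ± 0.10, 0.0201), the latter lost without CIC::NUTM1 replicate 3 and without CIC::DUX4 replicate 1 or 3.

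Granule docking and exocytosis held 1 gene with a large response. Of 43 genes 37 were tested, with 3 higher and 0 lower in CIC::DUX4 and 7 higher and 1 lower in CIC::NUTM1 (medians 0.10 and 0.02). Of all tested genes 6.96% were called higher and 1.27% lower with CIC::DUX4, a share near that of this list, and 11.5% and 3.83% with CIC::NUTM1. The 1 lower ran from 0 to 3 over the alternatives. The controls alone would not have carried 3 of the 37 past the abundance filter. Among these 3 was 1 of the 7 called higher with CIC::NUTM1, PTPRN2, named outside the rule. The count of 7 therefore does not support a statement about the list. UNC13A, which encodes the vesicle-priming protein Munc13-1, was at 1.26, 1.84 and 1.68 CPM in the empty vector libraries. It was at 58.8, 32.8 and 49.1 CPM in those of CIC::NUTM1, and at 58.5, 37.0 and 36.8 CPM in those of CIC::DUX4. The fusion groups overlapped each other and lay far above the controls, by 4.82 ± 0.34 and 4.75 ± 0.34 on the log2 scale (SE; adjusted p 1.68e-05 and 3.25e-05 in edgeR). CADPS2, a dense-core granule priming factor, went from 27.98 ± 1.35 CPM to 66.0 ± 7.31 (CIC::NUTM1) and 70.2 ± 6.42 CPM (CIC::DUX4; edgeR adjusted p 4.91e-10 and 2.79e-10). UNC13B went from 82.0 ± 3.68 CPM to 128 ± 16.4 and 160.5 ± 25.0 CPM (edgeR adjusted p 0.000175 and 2.62e-06).

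CPLX1, a complexin that clamps SNARE fusion, was higher with CIC::NUTM1 than with empty vector (27.96 ± 3.55 against 19.2 ± 0.592 CPM, edgeR adjusted p 0.00159). Between the fusions, 2 of the 37 tested exocytosis genes were called higher with CIC::NUTM1 and 3 lower. Of all tested genes, 4.97% were called higher and 1.64% lower there, and the count of 2 was near its share. The 2 higher were CPLX1 (log2 0.50 ± 0.12, edgeR adjusted p 0.00889, lost without CIC::NUTM1 replicate 1 and without CIC::DUX4 replicate 1) and RAB2A (0.38 ± 0.07, 0.00105). The 3 that were lower had edgeR adjusted p between 0.0335 and 0.0474: PICK1, named outside the rule, RPH3AL and SYP, the synaptophysin gene. The RPH3AL call was lost in 7 alternatives and that of SYP in 10, most of them with 1 library left out. SYP was also the 1 exocytosis gene called lower with CIC::NUTM1 against control (16.4 ± 0.74 against 20.7 ± 2.32 CPM, edgeR adjusted p 0.0492), lost in 9 alternatives.

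**Figure D4:**
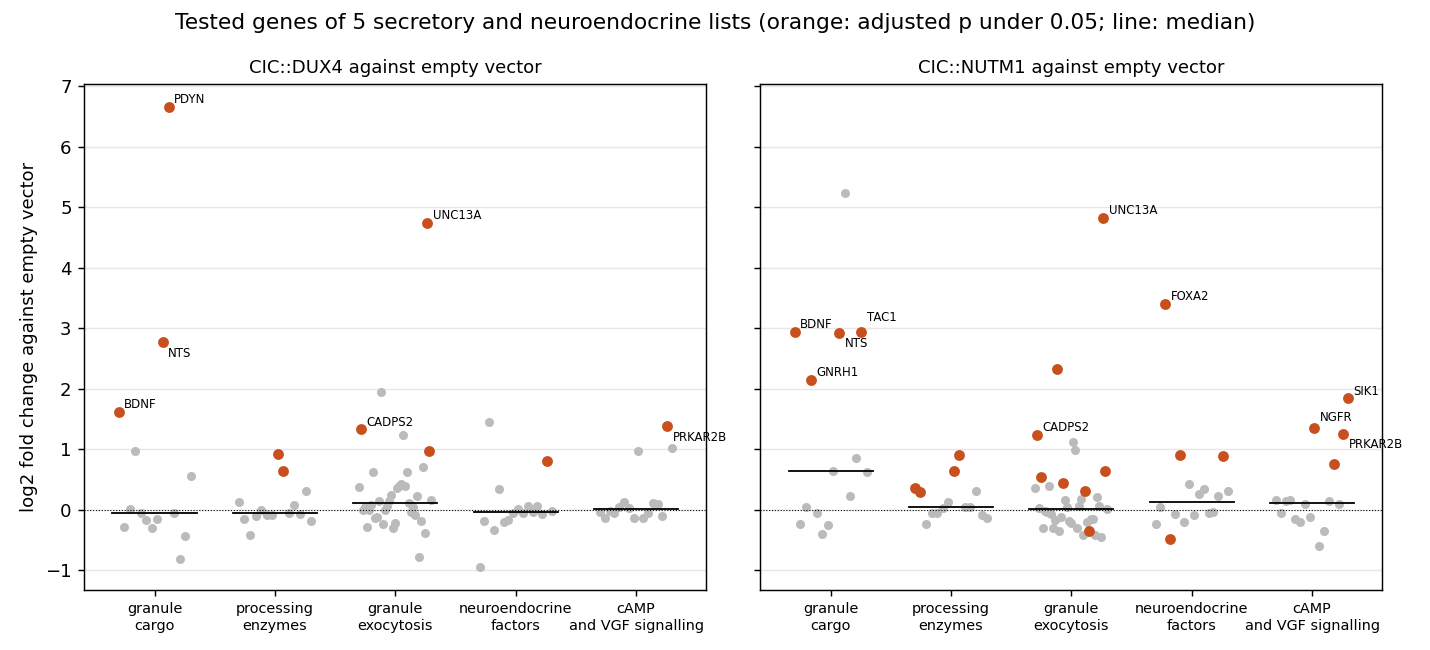
Log2 fold change against empty vector of the tested genes of the 5 lists, with CIC::DUX4 on the left and CIC::NUTM1 on the right; each point is a gene, orange where the adjusted p is under 0.05, and bars are list medians. UNC13A lies near 4.8 with both fusions while most genes lie near 0; the fitted value of PDYN, with controls at 0, depends on the prior count.

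Of 28 neuroendocrine transcription factors other than INSM1, 16 were tested, with 1 higher and 0 lower in CIC::DUX4 and 3 higher and 1 lower in CIC::NUTM1 (medians -0.05 and 0.13). Over all tested genes 6.96% and 11.5% were called higher and 1.27% and 3.83% lower, so the CIC::DUX4 count was near the background, and FOXA2 passed the filter only with the fusion libraries. RFX3, a factor of ciliated and endocrine cells, rose with both, from 9.32 ± 1.18 CPM to 17.4 ± 3.20 (CIC::NUTM1) and 16.3 ± 2.65 CPM (CIC::DUX4; edgeR adjusted p 0.00018 and 0.00102). ISL1, a LIM-homeodomain factor of endocrine and motor neuron lineages, was at 25.8 ± 0.707, 48.3 ± 5.87 and 22.5 ± 0.653 CPM in empty vector, CIC::NUTM1 and CIC::DUX4. It rose with CIC::NUTM1 (edgeR adjusted p 2.17e-07) and differed between the fusions by 1.10 ± 0.10 on the log2 scale (5.24e-08). FOXA2, an endoderm factor, went from 0.187 ± 0.113 to 2.19 ± 0.393 CPM with CIC::NUTM1 (edgeR adjusted p 5.31e-05) and was at 0.551 ± 0.186 CPM with CIC::DUX4. The direct difference for FOXA2 (adjusted p 0.0148, edgeR) was lost without CIC::NUTM1 replicate 1 and without CIC::DUX4 replicate 2 or 3.

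GFI1, a zinc-finger repressor, was lower with CIC::NUTM1 (13.2 ± 2.73 against 18.7 ± 1.73 CPM, edgeR adjusted p 0.0337), and this call was lost without any 1 of the 3 empty vector libraries and without CIC::NUTM1 replicate 1 or 3. PAX6, a homeodomain factor of eye and islet, was higher in the CIC::NUTM1 libraries than in those of CIC::DUX4 (39.2 ± 0.526 against 31.4 ± 2.01 CPM, edgeR adjusted p 0.0338), a call lost in 9 alternatives, 6 of which left out 1 library. REST, the repressor of neuronal and granin genes outside neural cells, was picked after its values were seen. It was at 49.3 ± 5.75 CPM in the controls, 57.4 ± 3.28 (CIC::NUTM1) and 47.1 ± 4.03 CPM (CIC::DUX4), and was not called in any comparison (edgeR adjusted p 0.125, 0.776 and, between the fusions, 0.0721).

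Of 18 genes of cAMP signalling and VGF reception, 16 were tested, with 1 higher and 0 lower in CIC::DUX4 and 4 higher and 0 lower in CIC::NUTM1 (medians 0.00 and 0.11). The share of all tested genes called higher was 6.96% and 11.5%, and the CIC::DUX4 count was near it. PRKAR2B, a regulatory subunit of protein kinase A, rose with both fusions, from 47.7 ± 3.36 CPM to 114 ± 15.3 (CIC::NUTM1) and 124 ± 15.9 CPM (CIC::DUX4; edgeR adjusted p 7.89e-09 and 4.11e-09). PRKACB, a catalytic subunit, rose with CIC::NUTM1 from 21.5 ± 1.64 to 36.5 ± 5.95 CPM and was at 23.0 ± 1.57 CPM with CIC::DUX4, and the fusions differed by 0.66 ± 0.12 on the log2 scale (edgeR adjusted p 0.000469). SIK1, a kinase gene induced by CREB, and NGFR, the p75 neurotrophin receptor, were called with CIC::NUTM1 at 2.77 ± 0.729 and 3.90 ± 0.839 CPM (controls 0.745 ± 0.298 and 1.53 ± 0.363 CPM, edgeR adjusted p 0.00126 and 0.00307).

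Markers of cell types that carry such granules were mostly scarce. Of 6 chromaffin cell markers, TH was at 0 counts in all 9 libraries and 1, PNMT, was tested and not called. The summed CPM of the 6 was 0.229 to 0.937 in empty vector, 1.62 to 2.07 in CIC::NUTM1 and 0.765 to 1.39 in CIC::DUX4. Of 4 islet markers, INS was at 0 in all libraries, and the sum was 3.05 to 3.49, 3.11 to 4.36 and 3.24 to 5.88 CPM in the same order. Of 10 neuronal markers 8 were tested, and their sum, made up mostly of the neurofilament genes NEFM and NEFL, was 693 to 879 CPM in the controls and lay lower, at 473 to 592 (CIC::NUTM1) and 512 to 554 CPM (CIC::DUX4). Of those 8, with CIC::DUX4 DCX and MAP2 were called higher and NEFL and NEFM lower (edgeR). With CIC::NUTM1, DCX, ELAVL4 and MAP2 were higher and NEFL, INA and NEFM lower. Of all tested genes, 6.96% were called higher and 1.27% lower with CIC::DUX4, and 11.5% and 3.83% with CIC::NUTM1. Empty vector libraries held 3, 0 and 0 counts of DCX, 0, 4 and 4 of ELAVL4, and 14, 23 and 6 of MAP2. DCX, ELAVL4 and MAP2 thus passed the abundance filter only with the fusion libraries, and their calls do not support a statement about the list. The part of other cell types in the granin levels was not tested, and the lists had no common direction.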

How the data were processed

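For 9 polyA-selected, directional libraries, 2 tables deposited by the authors were used: raw counts by Ensembl gene, and log2 CPM by gene name. Per the submitters' processing notes, STAR 2.7.10b, R 4.2.2, edgeR 3.40.2 and GRCh38 were used, with no roles given; the counting program, annotation and use of strand are not given in the sources used here. The deposited log2 CPM equalled, for the 7 members it lists, those computed here (TMM, prior count 2).

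Groups came from the sample labels. Members and gene lists were chosen with earlier results of these data known. Counts were tested in R 4.3.3 with edgeR 4.0.16: filterByExpr on group (17576 of 34765 genes with counts kept), TMM, a robust quasi-likelihood fit of all 9 libraries with 1 mean per group, and Benjamini-Hochberg adjustment over all tested genes at 0.05. SE come from the F statistic (fold change over its root). CPM are TMM-scaled, with SD over 3 libraries, and levels between genes are per kilobase of merged GENCODE 29 exons. Symbols were found for 62622 of 62700 IDs. On simulated data for CIC::DUX4 against empty vector (200 of 17195 genes changed 3-fold) edgeR found 92% of them and 5.15% of its calls were false. The changed genes were drawn from those with a mean of at least 1 CPM, so recovery of scarcer genes was not measured. No library pair within a group agreed within counting noise (chi-square over degrees of freedom 5.73 to 9.71). Counting intervals are exact, at 95%, and cover counting error only, since reads carry no molecular identifiers.

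All members are named. List genes are named where called with a group mean of at least 1 CPM, at most 4 per list and comparison, and exceptions are marked. Likeness names the 5 highest Pearson correlations, and neighbours are the 3 nearest protein-coding genes on each side. Some genes that these rules take in are not reported here. Alternatives were other scalings (DESeq2 size factors, library totals, upper quartile), DESeq2 1.42.0 as the test, limma-trend (limma 3.58.1) on the authors' log2 CPM, no abundance filter, a minimum of 10 counts in each library, only the 2 groups compared, a replicate block, and each library left out. No alternative was added after the data were seen. Figures were drawn with matplotlib 3.10.9.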

Additional observations from a re-analysis of the deposited data

How the results depend on the processing

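For VGF, INSM1, CHGA, CHGB, SCG2 and SCG3 the direction against empty vector was the same in every alternative in which the gene was fitted. PCSK1N with CIC::DUX4 ran from -0.142 to 0.023 (log2) with 1 library left out, the latter without empty vector replicate 3. VGF ranged from 9.88 to 10.48 (CIC::DUX4) and from 8.73 to 9.34 (CIC::NUTM1). With at least 10 counts in every library only 2 of the members are tested, so that 1 was called (CIC::DUX4) and 0 (CIC::NUTM1), and 961 genes in all were called with CIC::DUX4 instead of 1448. With 1 library left out, 2 to 4 members were called with CIC::DUX4 and 2 to 3 with CIC::NUTM1. Over all genes the calls then ran from 865 (without CIC::DUX4 replicate 1) to 1642 with CIC::DUX4, and from 690 (without CIC::NUTM1 replicate 3) to 1264 between the fusions, against 1162. PCSK1 joined the calls of CIC::DUX4 in 5 of these, since it then passed the filter. With 1, 0 and 3 counts in empty vector, PCSK1 passed there only with the fusion libraries. Those calls carry that limit and add no support for a rise of PCSK1. Between the fusions the sign of SCG3 turned in limma-trend (0.12), with the replicate block (0.064) and without CIC::DUX4 replicate 1 (0.67; range -0.37 to 0.67 with 1 library left out), and that of PCSK1N turned without CIC::NUTM1 replicate 3 (0.015; range -0.087 to 0.015). None of these passed, and the cause was not tested.

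Scaling moved the balance of calls with CIC::NUTM1: 2018 higher and 673 lower became 1783 and 1138 with library totals and 1807 and 1124 with upper quartile factors, and between the fusions 874 and 288 became 695 and 437 with library totals. Same-numbered libraries of different groups deviated with correlations of -0.0308 to 0.0753, against -0.108 to 0.0698 for other pairs, so the numbers were not treated as pairs. With the replicate block the calls were 1472 (CIC::DUX4), 2739 (CIC::NUTM1) and 1201 (direct comparison), and no member's call changed. Depth limits the scarce genes: PCSK1, PCSK2 and SCG5 never exceeded 35 counts.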

Other observations

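Several other peptide and granule genes were at 0 counts in all 3 empty vector libraries and had a mean level above the floor of 3 counts per library with a fusion. They were below the filter and were picked after their values were seen. GCG, the glucagon precursor, was at least 4.38-fold higher with CIC::NUTM1 (12, 3 and 16 counts), and CADPS, a paralogue of CADPS2, at least 4.17-fold higher. CRH, corticotropin-releasing hormone, was at least 2.58-fold higher with CIC::NUTM1, and held 12, 8 and 0 counts with CIC::DUX4. CPZ, a carboxypeptidase, was at least 1.97-fold higher with CIC::DUX4, and held 10, 0 and 5 counts with CIC::NUTM1. The folds rest on 17 to 34 counts per group and have no replicate test.

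CIC::DUX4 replicate 1 was the highest of its group for VGF, CHGA, CHGB, SCG2, SCG3, PCSK1, PCSK2 and PCSK1N in CPM, and not for SCG5 or INSM1.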
